A study of Mus musculus with 9 samples.

Results

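The cornea of the mouse embryo at E16.5 was compared with the periocular neural crest (pNC) at E10.5, the pair of tissues that stand at the start and the end of the series. The comparison held 6 of the 9 RNA-Seq samples, chosen by the stage in their labels, with 3 biological replicates of E16.5 cornea set against 3 of E10.5 pNC. The 3 samples of E14.5 cornea entered the same model, in which they took part in the filter, the scaling and the estimate of the spread between replicates. All samples came from untreated wild-type embryos, of the strain C57BL/6 in the labels, and each sample pooled the tissue of several embryos. At E10.5 the ectoderm, the lens vesicle and the optic cup were removed from the dissected tissue, whereas the E16.5 corneas carried all of their layers, including the epithelium. In such bulk samples, fewer cells of a type and less RNA per cell cannot be told apart, so a difference below is a difference between the dissected tissues.

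Neural crest cells leave the dorsal neural tube, migrate around the optic cup and settle between the lens and the surface ectoderm. There they form the corneal endothelium, a single layer of cells that pumps fluid out of the cornea, and the keratocytes of the stroma, which secrete evenly spaced collagen fibrils and the keratan sulfate proteoglycans that hold them apart. The stratified epithelium of the cornea comes from the surface ectoderm and not from the crest. Crest cells around the eye divide quickly and hold transcription factors of the Alx, Pax, Zic and Ebf families, while keratocytes become quiescent once the stroma is built.

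Abundance is given as FPKM (fragments scaled to the length of the transcript and to the size of the library) in the order of replicates 1, 2 and 3, and means as ± SD with n = 3. Fold changes are on the log2 scale from the expected counts, positive when higher at E16.5. The p is that of the quasi-likelihood test in edgeR, adjusted by Benjamini-Hochberg over all tested genes. The standard error (SE) was worked back from that test. It is the absolute log2 fold change over the square root of the F statistic, and not a direct measure of the spread between replicates. Genes with p below 0.05 after adjustment that also changed by 1 or more on the log2 scale were called upregulated or downregulated. A gene with no count in any sample of a stage has no fitted fold of fixed size, and is given as a lower bound against a floor of 3 counts over the stage.

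Expected counts summed to between 8745161 and 9069023 in every sample of the series, so that depth hardly differed. The 10 most abundant genes of a sample took 3.48% to 3.995% of the counts in pNC and 7.78% to 9.81% in cornea. TMM factors, which correct for this, were 1.027 to 1.039 for pNC and 0.918 to 0.940 for cornea. E10.5 replicate 3 stood apart from the other pNC samples. It held fewer transcripts of neuronal, vascular, blood and optic cup genes and far fewer immediate early transcripts (*Fos* at 7.43 FPKM against 92.8 and 69.1). E16.5 replicate 1 held more epithelial and fewer stromal transcripts than the other corneas. Without E10.5 replicate 3, 2833 genes were called upregulated and 2349 downregulated, and without E16.5 replicate 1 these counts were 2829 and 2286.

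Of 19021 genes found in any of the 6 samples, 14771 passed the filter on low counts and were tested. At E16.5, 2862 genes (19.4%) were upregulated and 2282 (15.4%) downregulated, so that 34.8% of the tested genes were called. The adjusted p alone was passed by 5197 genes (35.2%) with higher and 5119 (34.7%) with lower values at E16.5. Scaling by library totals, without correction for composition, gave 2503 upregulated and 2695 downregulated genes and moved the median log2 fold change of all genes from 0.00 to −0.15. On the FPKM of the authors, limma gave 1856 upregulated and 1996 downregulated genes with a pseudocount of 1, and 2482 and 2634 with a pseudocount of 0.1. The direction that held more calls therefore depended on the scaling, and the values below are relative to the TMM scale. No gene was called in opposite directions by any of the settings tried.

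Large changes were common. Among the upregulated genes the median absolute log2 fold change was 1.99, 1426 changed by at least 2 on the log2 scale and 299 by at least 5. Among the downregulated genes the median was 1.74, with 930 and 179 genes past these limits. In 2843 of the upregulated and 2273 of the downregulated genes, all samples of one stage lay above all samples of the other, which was also true of 77.2% of all tested genes. No count was found at E10.5 for 58 upregulated genes and none at E16.5 for 54 downregulated genes. Changes were more frequent among rare transcripts. Of the 3316 genes with a mean FPKM between 1 and 5, 27.5% were upregulated and 19.2% downregulated, compared with 12.5% and 12.7% of the 3720 genes between 20 and 100. Among the 608 genes at 100 FPKM or more, 14.8% were upregulated and 19.7% downregulated.

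**Figure D1:**
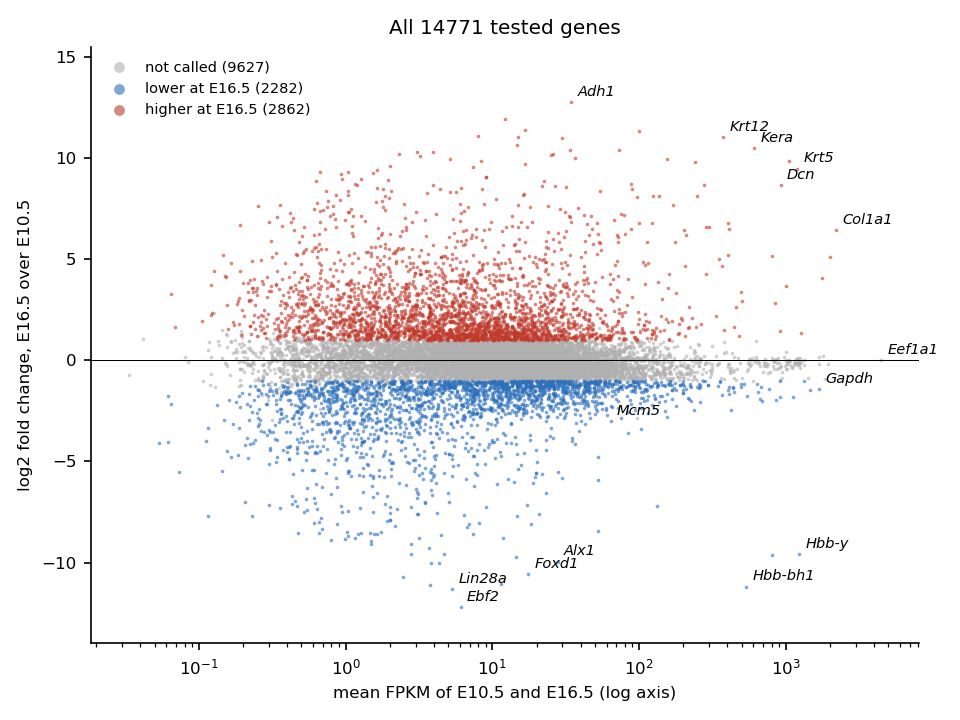
Log2 fold change from E10.5 pNC to E16.5 cornea (y axis) against the mean level of each of the 14771 tested genes (x axis, log scale), with called genes coloured by direction. Upregulated (2862) and downregulated (2282) genes are both more frequent among genes with a mean between 1 and 5 FPKM (27.5% and 19.2%) than between 20 and 100 FPKM (12.5% and 12.7%). Fitted values of genes with no count in a stage have no fixed size.

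Genes with a mean of at least 5 FPKM and the largest rises had diverse known roles. *Adh1*, an alcohol dehydrogenase, had no count at E10.5 and reached 83.9, 59.1 and 63.6 FPKM in the E16.5 samples, at least 911-fold higher. The epithelial surface protein gene *Msln* was at least 516-fold higher, the mast cell tryptase gene *Tpsb2* at least 354-fold, the interferon-inducible *Ifi202b* at least 283-fold, the lipase gene *Lipm* at least 166-fold and a second alcohol dehydrogenase gene, *Adh7*, at least 163-fold. *Krt12*, the keratin of the corneal epithelium, rose from 0.18, 0.54 and 0.43 FPKM to 989.7, 653 and 592 FPKM (log2 fold change 11.04, SE 1.85, adjusted p = 0.00028). These genes were at or near 0 in every pNC sample and expressed in every cornea.

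The genes with the largest falls were likewise of several kinds. The transcription factor gene *Ebf2* had 11.4, 13 and 12.1 FPKM in the pNC samples and no count at E16.5, at least 542-fold lower. *Lin28a*, which encodes an RNA-binding protein that blocks maturation of let-7 microRNAs, was at least 297-fold lower, *Pax7* at least 257-fold, *Barx1* at least 245-fold, *Vtn* (vitronectin) at least 121-fold, *Lhx8* at least 120.4-fold and *Gsc* at least 87.6-fold. *Gm10409*, a member of a multicopy gene family whose reads may be shared among copies, had 3.38, 11.5 and 1.87 FPKM at E10.5 and none at E16.5. *Hbb-bh1*, an embryonic beta globin gene, fell from 1076, 1251 and 876 FPKM to 0.39, 0.78 and 0 FPKM (log2 fold change -11.19, SE 0.48, adjusted p = 4.5e-08).

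In absolute amount, collagen, keratin and matrix genes were among those that gained most. *Col1a1* rose from 71.9, 60.6 and 35 FPKM to 3522, 5029 and 4431 FPKM and *Col1a2* from 155, 119.8 and 90.6 FPKM to 3112, 4506 and 3915 FPKM. *Col1a1* took more counts than any other gene in each E16.5 sample (1.67% to 2.38%). *Igfbp2*, an insulin-like growth factor binding protein gene, gained a similar amount, from 216 ± 20.7 to 3332 ± 193 FPKM (log2 fold change 4.10, SE 0.24, adjusted p = 2.4e-07). *Sparc*, a collagen-binding matrix protein gene, rose from 161 ± 31.4 to 1850.4 ± 179 FPKM. The largest losses, besides the embryonic globins, were of *Gapdh* (2504 ± 148 to 851 ± 34.9 FPKM, log2 fold change -1.41, SE 0.11, adjusted p = 9.6e-07), the prothymosin gene *Ptma* (log2 fold change -1.45), the chaperone gene *Hspa8* (log2 fold change -1.80) and the tubulin genes *Tuba1a* (log2 fold change -1.96) and *Tuba1b* (log2 fold change -1.81). *Ppia* lost 1 of the largest amounts, from 2513 ± 169 to 1201 ± 47.2 FPKM, but at -0.92 it did not reach the fold limit. It was past that limit when libraries were scaled to their totals (−1.07).

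Genes were then described in 44 lists of known function or cell type, of whose 1352 entries 1327 were listed in at least 1 sample. Counts of called genes within a list are read against the 19.4% and 15.4% of all tested genes.

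**Figure D2:**
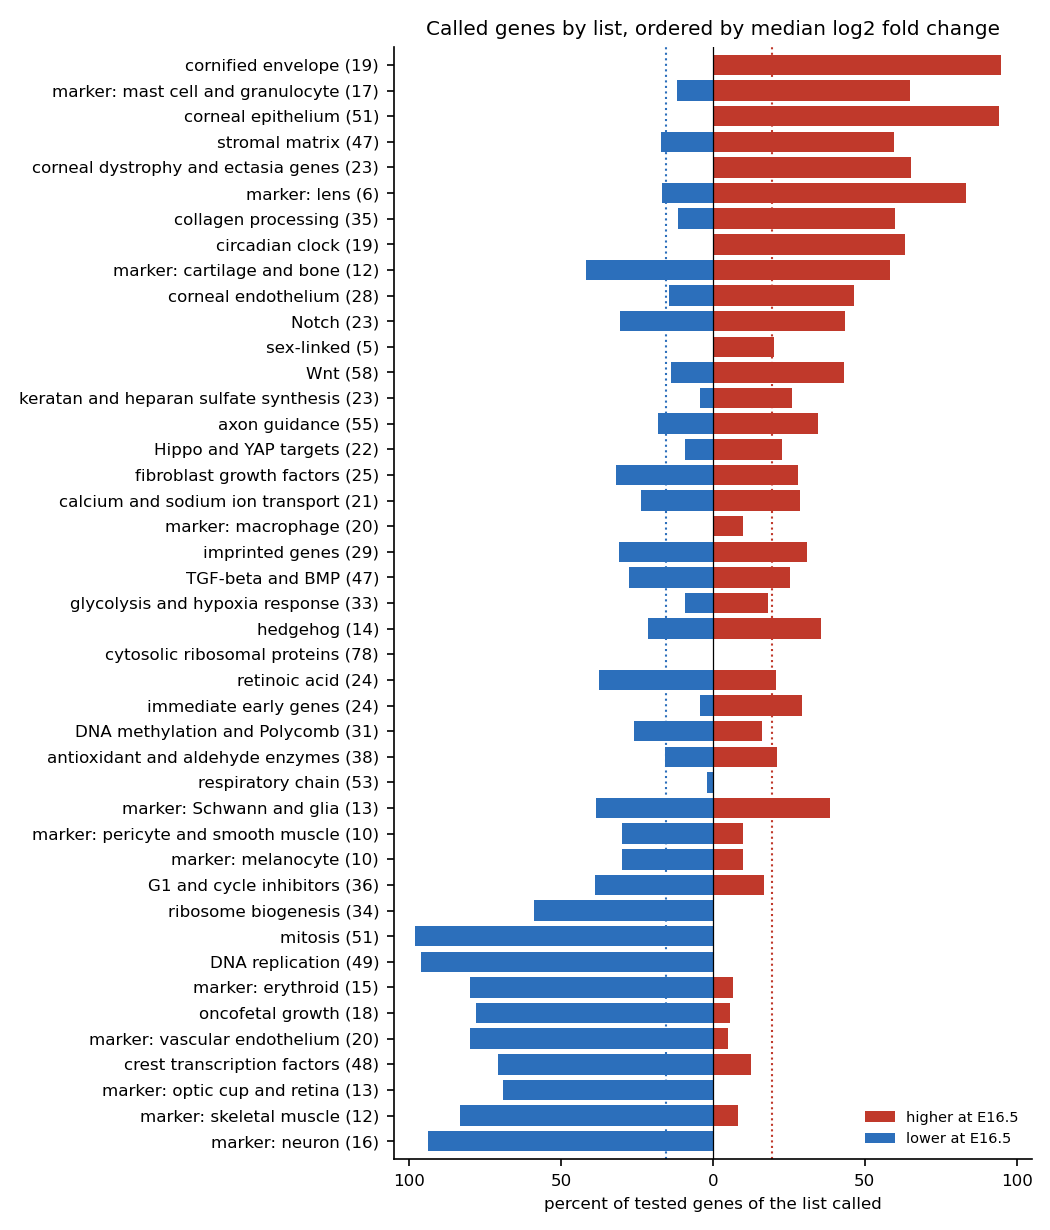
Percent of the tested genes of each list that were upregulated (right) and downregulated (left) at E16.5, with the percent among all tested genes as dotted lines and the lists ordered by median log2 fold change. Corneal epithelium (48 of 51 upregulated) and mitosis (50 of 51 downregulated) have bars to one side only, and no ribosomal protein gene was called.

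Of 47 tested stromal matrix genes, 28 were upregulated and 8 downregulated, with a median log2 fold change of 2.83 compared with 0.00 over all genes. Together, the genes of this list took 0.392% ± 0.0622 of summed FPKM at E10.5 and 5.83% ± 0.850 at E16.5. *Kera* (chr10:97606962-97613688), the gene of the keratan sulfate proteoglycan keratocan, was at 0.69, 0.96 and 1.11 FPKM in the pNC and 1244, 1169.9 and 1231 FPKM in the cornea (log2 fold change 10.51, SE 0.99, adjusted p = 4.2e-06). It had the largest fold among the matrix genes tested. *Dcn* (decorin, chr10:97479500-97518163) went from 4.74, 5.04 and 5.04 FPKM to 1734, 1929 and 1839.8 FPKM (log2 fold change 8.69, SE 0.45, adjusted p = 1.1e-07). *Lum* (lumican, chr10:97565501-97572703) was already present in the pNC, at 54, 48 and 45.9 FPKM, and it rose to 1594, 1568 and 1549 FPKM (log2 fold change 5.14, SE 0.26, adjusted p = 9.8e-08).

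The collagen that binds to the surface of fibrils, *Col14a1*, rose from 0.583 ± 0.0808 to 479 ± 79.4 FPKM (log2 fold change 9.82, SE 0.44, adjusted p = 5.8e-08). The filament-forming adaptor *Matn4* behaved alike, with 0.22, 0.35 and 0.41 FPKM at E10.5 and 235, 359.7 and 329.8 FPKM at E16.5 (log2 fold change 9.97). For both, as for *Col1a1*, E16.5 replicate 1 was the lowest of the corneas, and every cornea lay far above every pNC sample. *Col3a1* started higher, at 227 ± 32.2 FPKM, and rose less, to 1458 ± 271 FPKM (log2 fold change 2.83, SE 0.21, adjusted p = 8.2e-07). The 8 genes that fell are named after their values were seen. They were *Vtn*, *Smoc1*, *Epyc*, the hyaluronan link protein gene *Hapln1* (log2 fold change -2.52), *Emilin2*, the versican gene *Vcan* (log2 fold change -2.34), *Nid2* and the tenascin C gene *Tnc*. *Tgfbi* went the same way without reaching the fold limit, from 61.7, 53.6 and 45.9 FPKM to 31.9, 24.1 and 25.3 FPKM (log2 fold change -0.84, SE 0.16, adjusted p = 0.00064).

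Genes of collagen folding, secretion and crosslinking rose with the collagens, with 21 of 35 upregulated and 4 downregulated (median 1.30). *Serpinh1*, the collagen chaperone HSP47, was abundant at both stages, at 571, 525 and 482 FPKM and 1160.0, 1313 and 1385 FPKM (log2 fold change 1.44, SE 0.17, adjusted p = 1.9e-05). Prolyl 4-hydroxylase alpha, *P4ha1*, rose from 23.3 ± 1.64 to 63.7 ± 6.28 FPKM, and the crosslinking enzyme gene *Lox* from 22.5 ± 1.34 to 112 ± 16.6 FPKM (log2 fold change 2.46, SE 0.13, adjusted p = 1.1e-07). The list's largest folds were those of *Ctsk*, a collagen-degrading cathepsin (4.23 ± 0.43 to 223 ± 8.8 FPKM, log2 fold change 5.87), and *Creb3l1*, a membrane-bound transcription factor of secretory cells (1.61, 1.83 and 1.59 FPKM to 39.4, 43.2 and 49.4 FPKM, log2 fold change 4.86, SE 0.26, adjusted p = 1.4e-07). The procollagen N-proteinase gene *Adamts2* (log2 fold change 2.63) and the prolyl isomerase gene *Fkbp14* (log2 fold change 2.64) rose as well. The 4 genes that fell included the enhancer of procollagen cleavage *Pcolce2* (log2 fold change -3.14) and the lysyl oxidase gene *Loxl4* (log2 fold change -1.78), which are named after their values were seen.

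Enzymes that build keratan and heparan sulfate chains split into a few large rises and many small differences. Of 23 tested, 6 were upregulated and 1 downregulated (median 0.48), and 16 had higher values at an adjusted p under 0.05 alone. *Chst5*, the sulfotransferase of corneal keratan sulfate, rose from 1.33, 1.71 and 1.06 FPKM to 37.4, 41.9 and 41.9 FPKM (log2 fold change 5.03, SE 0.27, adjusted p = 1.4e-07). *B3gnt7*, which extends the keratan chain, rose from 1.92, 1.81 and 1.86 FPKM to 28.3, 29.7 and 32 FPKM (log2 fold change 4.15). *Papss2*, which makes the sulfate donor, rose from 1.06 ± 0.224 to 34.4 ± 1.16 FPKM (log2 fold change 5.15). The partner of *B3gnt7* in chain extension, *B4galt1*, differed by 0.88 and was not called, and *Chst1*, another keratan sulfate sulfotransferase, had 3.26, 4.12 and 2.39 FPKM at E10.5 and 1.73, 3.93 and 4.17 FPKM at E16.5 (log2 fold change 0.16, SE 0.34, adjusted p = 0.7). The *Chst1* samples of both stages overlapped.

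**Figure D3:**
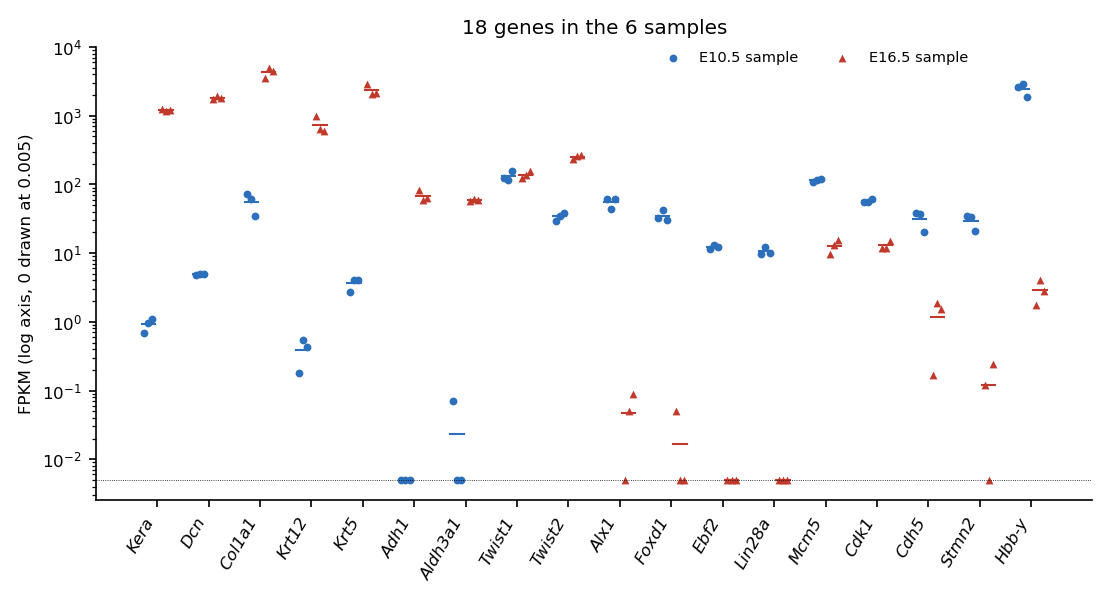
FPKM of selected genes in each of the 3 E10.5 pNC and 3 E16.5 cornea samples (points, log axis) with the stage mean as a bar and 0 drawn at 0.005. *Kera* goes from at most 1.11 to at least 1169.9 FPKM and *Alx1* from at least 43.4 to at most 0.09 FPKM, while the *Twist1* samples of both stages overlap.

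Epithelial genes rose almost without exception. Of 51 tested, 48 were upregulated and none downregulated (median 5.02), and the share of summed FPKM of the whole list went from 0.0427% to 2.06%. The ectoderm was removed at E10.5, so that the epithelium is a tissue present in the E16.5 samples only, and the part of this in each value was not tested. *Krt5*, the basal epithelial keratin, went from 2.74, 4.13 and 4.11 FPKM to 2891, 2074 and 2165 FPKM (log2 fold change 9.49, SE 0.51, adjusted p = 1.4e-07). Its partner *Krt14*, also upregulated, was less abundant than *Krt5* in the corneas, at 574, 447 and 451 FPKM, while *Krt15* reached 2768, 1772 and 1789 FPKM. For all of these keratins and for *Krt12*, E16.5 replicate 1 was the highest cornea, and no sample of one stage came near the other stage.

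Desmosomal *Dsg1a* (log2 fold change 11.04) and *Pkp1* (log2 fold change 10.03) had folds of the same order, and the hemidesmosomal collagen gene *Col17a1* rose from 0.78 ± 0.272 to 194 ± 23.2 FPKM (log2 fold change 8.10). *Pax6*, the transcription factor of the eye field that the epithelium keeps, was not absent from the pNC. It had 8.63, 10.4 and 3.44 FPKM at E10.5, lowest in replicate 3, and 237, 186 and 189 FPKM at E16.5 (log2 fold change 4.89, SE 0.36, adjusted p = 7.7e-07). The list's exceptions, named after their values were seen, were *Krt18* (0.43), *Itga6* (0.51) and *Cldn7* (0.57), none of which was called.

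The list of the cornified envelope, the protein shell of keratinizing surface cells, also held S100, serpin and calmodulin-like genes. Of its 36 genes 19 could be tested and 18 were upregulated, the exception being *Tgm3* (-0.06). The counts are therefore not those of envelope proteins alone. Their median of 5.62 became 5.05 with a gene absent from one stage set at its lower bound. *Serpinb3a* rose from 0.0467 ± 0.0404 to 67.6 ± 16.3 FPKM (log2 fold change 10.41), *Serpinb5* (log2 fold change 10.67) and *S100a14* (log2 fold change 10.20) did so to a similar extent, and the calmodulin-like gene *Calml3* went from 0.16, 0.62 and 0.56 FPKM to 210.4, 156 and 159.7 FPKM (log2 fold change 8.73, SE 0.38, adjusted p = 4.8e-08). Genes of late keratinization were low. The loricrin gene *Lor* reached 4.6, 5.56 and 4.15 FPKM (log2 fold change 3.80), *Sprr1a* had no count at E10.5 and 2.19, 2.46 and 1.44 FPKM at E16.5, too low for the test, and *Sprr2a1* reached 0.02 FPKM in a single cornea.

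The list of corneal endothelial genes was mixed, with 13 of 28 upregulated and 4 downregulated (median 0.86). Collagen VIII, the main collagen of the basement membrane below the endothelium, rose in both of its chains. *Col8a1* went from 1.01, 0.95 and 0.92 FPKM to 62.5, 58.7 and 59.7 FPKM (log2 fold change 6.11, SE 0.10, adjusted p = 1.5e-10), with little spread at either stage. *Col8a2* was already at 14.3, 10.4 and 7.17 FPKM in the pNC and rose to 130.5, 169.8 and 171 FPKM (log2 fold change 4.03). The water channel gene *Aqp1*, also expressed in keratocytes, changed most, from 1.81 ± 0.119 to 341 ± 48.6 FPKM (log2 fold change 7.70, SE 0.24, adjusted p = 1e-08).

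Transporters of the endothelial pump changed less. The bicarbonate cotransporter gene *Slc4a4* rose from 2.48, 2.42 and 2.48 FPKM to 5.37, 5.21 and 5.35 FPKM (log2 fold change 1.26) and the borate and water transporter gene *Slc4a11* from 0.38, 0.34 and 0.14 FPKM to 1.35, 1.69 and 2.31 FPKM (log2 fold change 2.76). In the wider list of ion transport genes, 6 of 21 were upregulated and 5 downregulated. The chloride channel gene *Ano1* (1.77 ± 0.563 to 26.6 ± 0.906 FPKM, log2 fold change 4.05), the mechanosensitive channel gene *Piezo2* (log2 fold change 1.86), the potassium channel gene *Kcnk2* (log2 fold change 1.95) and the sodium channel gene *Scnn1a* (log2 fold change 1.76) were among the former.

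Genes mutated in human corneal dystrophy or linked to ectasia came from all 3 layers, and 15 of the 23 tested were upregulated with none downregulated (median 2.58). They overlapped with the lists above and are no separate evidence. *Krt12*, *Col17a1*, *Dcn* and *Slc4a11* were among those that rose. *Zeb1*, a repressor of epithelial genes whose mutation causes endothelial dystrophy, was at 15.6, 15 and 14.6 FPKM and 8.3, 9.42 and 10.3 FPKM (log2 fold change -0.54) and was not called. Without E10.5 replicate 1, 1 gene of this list was downregulated.

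Most transcription factors of the periocular crest fell. Of 48 tested, 34 were downregulated and 6 upregulated (median −4.45), while the share of summed FPKM that the list took was 0.277% to 0.279% in pNC and 0.201% to 0.240% in cornea. *Alx1* (chr10:103007847-103029549), a homeobox gene needed for the upper face and eye region, had 61.9, 43.4 and 62.5 FPKM in the pNC and 0, 0.05 and 0.09 FPKM in the cornea (log2 fold change -9.96, SE 0.56, adjusted p = 1.7e-07). *Foxd1* fell from 32.9, 42.4 and 30.1 FPKM to 0.05, 0 and 0 FPKM (log2 fold change -10.58), and *Six2* from 122, 98.1 and 91.9 FPKM to 2.22, 1.43 and 1.03 FPKM (log2 fold change -5.90, SE 0.27, adjusted p = 6.1e-08). *Tbx18* (log2 fold change -9.26) fell to a trace as well, and in each of these genes the lowest pNC sample lay well above the highest cornea.

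*Twist1*, which marks crest-derived mesenchyme, was not called. Its levels were 123, 117 and 157 FPKM at E10.5 and 124, 139 and 156 FPKM at E16.5 (log2 fold change 0.22, SE 0.14, adjusted p = 0.18), and the samples of both stages overlapped. The factors that rose, of which some are named after their values were seen, included abundant genes. *Twist2* rose from 29.9, 35.3 and 38.5 FPKM to 237, 261 and 265 FPKM (log2 fold change 3.03, SE 0.15, adjusted p = 8e-08) and became the most abundant gene of the list. *Tfap2b* rose from 11.4 ± 1.32 to 81.2 ± 7.04 FPKM (log2 fold change 2.98), and *Lmx1b* (log2 fold change 2.48), *Tfap2a* (log2 fold change 1.72) and *Meis2* (log2 fold change 1.63) rose as well. Hox genes, which anterior crest lacks, were too rare for the test, and the 26 that were listed summed to 0.89 to 1.42 FPKM at E10.5 and to 1.32 to 1.71 FPKM at E16.5.

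Cell cycle genes fell almost without exception. DNA replication genes were downregulated in 47 of 49 tested genes and mitosis genes in 50 of 51, both with a median log2 fold change of −2.02, and none rose. The share of summed FPKM went from 0.632% to 0.157% for replication genes and from 0.596% to 0.145% for mitosis genes. The exceptions, named after their values were seen, were *Tyms* (-0.93), *Rfc1* (-0.50) and *Pttg1* (-0.39).

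Promoters of cell cycle genes are known for a few control elements. E2F factors drive genes of S phase, and the cell cycle genes homology region (CHR) together with CCAAT boxes drives many genes of mitosis. The 160 bases before the start of 3 members are shown because they hold these elements in different combinations: *Mcm5*, a subunit of the replicative helicase (chr8:75109349-75109508, plus strand), *Cdk1*, the kinase of mitotic entry (chr10:69352913-69353072, minus strand), and *Cdc20*, an activator of the anaphase-promoting complex (chr4:118437344-118437503, minus strand). They were chosen after the search and after values were seen, from RefSeq on GRCm38.p6, and are written 5′ to 3′ with the motif letters in capitals.
Mcm5: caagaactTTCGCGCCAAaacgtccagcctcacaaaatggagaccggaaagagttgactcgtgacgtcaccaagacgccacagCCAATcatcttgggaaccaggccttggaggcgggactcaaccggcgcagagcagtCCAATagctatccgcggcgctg
Cdk1: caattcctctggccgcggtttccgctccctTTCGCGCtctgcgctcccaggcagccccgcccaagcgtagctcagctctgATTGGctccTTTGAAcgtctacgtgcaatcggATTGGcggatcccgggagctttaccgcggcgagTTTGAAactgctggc
Cdc20: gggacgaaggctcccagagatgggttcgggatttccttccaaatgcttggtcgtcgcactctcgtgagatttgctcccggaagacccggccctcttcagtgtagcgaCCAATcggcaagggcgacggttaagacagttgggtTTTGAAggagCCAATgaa
The letters searched, on both strands, were TTCGCGC or TTGGCGC for E2F, TTTGAA for the CHR and CCAAT for the CCAAT box, and E2F letters can overlap each other and a CCAAT box. *Mcm5* held overlapping E2F letters that began 152 and 149 bases before the start, and CCAAT boxes at 77 and 22 bases. *Cdk1* held E2F letters at 130 bases, CCAAT boxes at 80 and 48 bases and CHR letters at 71 and 15 bases. *Cdc20* held CCAAT boxes at 53 and 8 bases and CHR letters at 18 bases.

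Between 250 bases before and 50 after the start, 15 (37.5%) of the 40 replication genes with a promoter in the RefSeq table held E2F letters, compared with 9 (21.4%) of 42 mitosis genes and 4.47% of all 27025 genes in that table. CHR letters were found in 8 (20%) replication genes and 31 (73.8%) mitosis genes, compared with 20.2% of all genes. CCAAT boxes were found in 25 (62.5%), 29 (69%) and 41.1%. These are counts of letters, not of sites, and no test was made.

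In the samples, *Mcm5* went from 107, 117 and 121 FPKM to 9.7, 13.3 and 15.7 FPKM (log2 fold change -3.01, SE 0.24, adjusted p = 1.5e-06), *Cdk1* from 56.3, 55.1 and 60.9 FPKM to 11.9, 12 and 15.2 FPKM (log2 fold change -1.99, SE 0.11, adjusted p = 1.4e-07) and *Cdc20* from 99.9, 107 and 101 FPKM to 14.8, 15.9 and 19.2 FPKM (log2 fold change -2.48, SE 0.19, adjusted p = 1.1e-06). All samples of E16.5 lay below all samples of E10.5. *Rrm2*, the small subunit of ribonucleotide reductase, had the largest fall of the replication genes, from 155 ± 9.02 to 11.4 ± 1.46 FPKM (log2 fold change -3.61, SE 0.24, adjusted p = 4.1e-07), and the licensing genes *Cdc6* (log2 fold change -3.18) and *Orc1* (log2 fold change -3.15) were close to it. *Mcm2* (log2 fold change -2.18) and *Mcm3* (log2 fold change -2.39) fell less than *Mcm5*. Among mitosis genes, the checkpoint kinase gene *Bub1* fell most, from 40.7, 39.8 and 44.7 FPKM to 3.85, 4.48 and 5.83 FPKM (log2 fold change -2.995, SE 0.20, adjusted p = 4.3e-07), and *Aurka* (log2 fold change -2.45) and *Plk1* (log2 fold change -2.32) fell less. *Bub1* was lowest in E16.5 replicate 1, which was also the lowest cornea for *Mcm5*, *Cdk1* and *Cdc20*.

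Regulators of G1 changed in both directions, with 14 of 36 downregulated and 6 upregulated. Cyclin D1, *Ccnd1*, fell from 75.1, 71 and 61.6 FPKM to 2.79, 4.06 and 3.77 FPKM (log2 fold change -4.14, SE 0.26, adjusted p = 3.3e-07), and cyclin E1, *Ccne1*, from 37.3 ± 4.22 to 4.85 ± 0.808 FPKM (log2 fold change -2.79). Cyclin D2 was not called. *Ccnd2* had 54.5, 59.6 and 61.2 FPKM in the pNC and 44.8, 48.2 and 49.1 FPKM in the cornea (log2 fold change -0.16, SE 0.09, adjusted p = 0.15). The inhibitor gene *Cdkn1a* rose from 3.33, 3.36 and 3.45 FPKM to 26.6, 15.3 and 15.3 FPKM (log2 fold change 2.64, SE 0.41, adjusted p = 0.00018), highest in E16.5 replicate 1. *Cdkn1c*, an imprinted inhibitor gene, was abundant at both stages (197 ± 4.61 and 306 ± 43.2 FPKM) with a log2 fold change of 0.78.

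Oncofetal genes, which drive early embryonic growth and return in tumours, fell as well. In this list 14 of 18 tested genes were downregulated and 1 upregulated (median −2.79). *Lin28b* fell from 11.8, 11.8 and 14.9 FPKM to 0.06, 0.04 and 0.06 FPKM (log2 fold change -7.65, SE 0.45, adjusted p = 2.2e-07). Known targets of let-7 were among the others that fell. *Hmga2*, a chromatin protein gene, went from 98.4, 97.8 and 111 FPKM to 2.93, 3.4 and 3.78 FPKM (log2 fold change -4.77, SE 0.33, adjusted p = 6.1e-07), *Igf2bp1* from 35.2 ± 0.855 to 6.63 ± 0.139 FPKM (log2 fold change -2.26) and *Mycn* from 24.1 ± 0.71 to 2.53 ± 0.783 FPKM (log2 fold change -3.11). The immunoglobulin superfamily gene *Igdcc3* fell by 5.53 on the log2 scale.

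Imprinted genes, many of which control fetal growth, were divided evenly, with 9 of 29 up and 9 down, *Dcn* counted among the former. The paternally expressed growth factor gene *Igf2* rose from 341, 333 and 268 FPKM to 656, 618 and 645 FPKM (log2 fold change 1.18, SE 0.12, adjusted p = 6.1e-06). *H19*, the noncoding RNA beside it, rose from 755, 802 and 728 FPKM to 1925, 1684 and 1740.4 FPKM (log2 fold change 1.37, SE 0.10, adjusted p = 7.1e-07). On chromosome 12, the noncoding RNA gene *Meg3* rose from 119 ± 9.52 to 884 ± 53.3 FPKM (log2 fold change 2.93). Its neighbour *Dlk1* had 33.6, 29.3 and 20.01 FPKM at E10.5 and 48.5, 54.6 and 57.9 FPKM at E16.5 (log2 fold change 1.10, SE 0.22, adjusted p = 0.0011), a call that was lost without E10.5 replicate 3 (0.90) and with libraries scaled to their totals (0.94). *Asb4* fell from 16.6, 20.3 and 17.3 FPKM to 0.1 FPKM in each cornea (log2 fold change -7.25), and the retrotransposon-derived *Peg10* from 65.6 ± 5.74 to 3.78 ± 0.816 FPKM (log2 fold change -3.97).

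**Figure D4:**
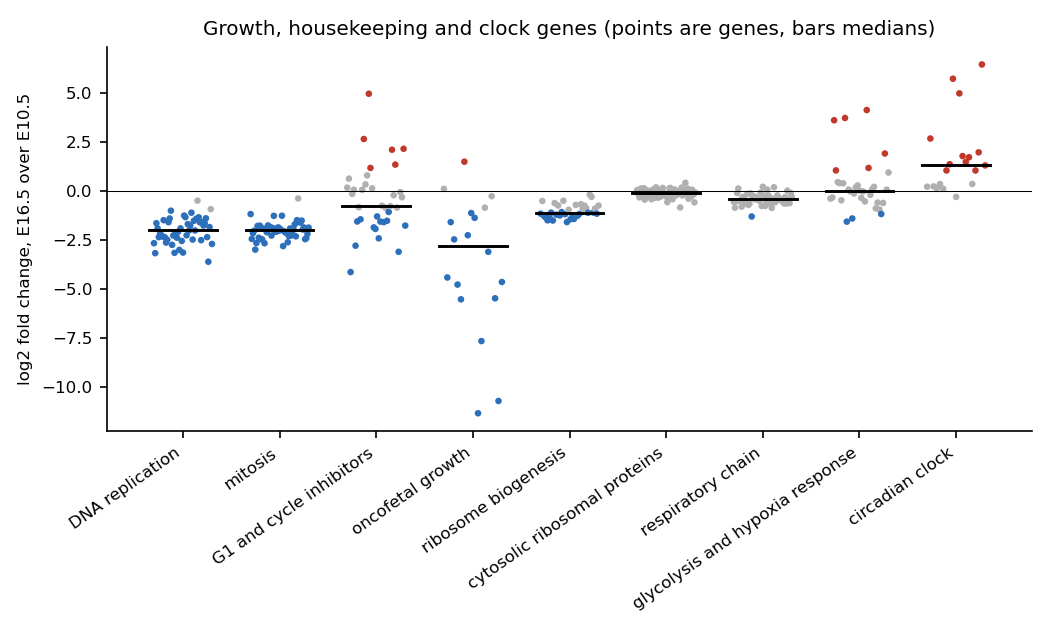
Log2 fold change from E10.5 pNC to E16.5 cornea (y axis) of the tested genes of 9 lists (x axis). Points are genes, coloured where called, and bars are medians. Replication and mitosis genes centre on −2.02, ribosomal protein genes on −0.12 and clock genes on 1.29.

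Ribosome biogenesis genes fell while no ribosomal protein gene passed the fold limit. Of 34 biogenesis genes 20 were downregulated and none upregulated (median −1.12), and 33 were lower at an adjusted p under 0.05 alone. *Npm1* fell from 1081, 1075 and 1269 FPKM to 404, 369 and 373 FPKM (log2 fold change -1.43, SE 0.11, adjusted p = 9.1e-07) and the methyltransferase gene *Fbl* from 153, 175 and 176 FPKM to 54.5, 50.8 and 55.1 FPKM (log2 fold change -1.50, SE 0.08, adjusted p = 1.7e-07). *Nolc1* (log2 fold change -1.59), *Heatr1* (log2 fold change -1.51) and *Ncl* (log2 fold change -1.26) fell to a similar extent. None of the 78 cytosolic ribosomal protein genes was called by edgeR. At an adjusted p under 0.05 alone 20 were lower and 1 was higher, and their share of summed FPKM was on average 16.9% in pNC and 15.6% in cornea, with overlap between stages. *Rplp0* had 1159.8, 1206 and 1276 FPKM and 1267, 1169 and 1173 FPKM (log2 fold change 0.13, SE 0.12, adjusted p = 0.34), a difference whose sign turned with library totals (−0.02).

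Respiratory chain genes were mostly a little lower. Only 1 of 53 was called, *Cox5a* (137 ± 4.24 to 49.8 ± 4.36 FPKM, log2 fold change -1.31, SE 0.10, adjusted p = 1.4e-06), but 41 were lower at an adjusted p under 0.05 alone (34.7% of all genes), and the median was −0.44. *Ndufa4* had 311, 289 and 327 FPKM at E10.5 and 169, 163 and 158 FPKM at E16.5 (log2 fold change -0.77), and *Ndufa9* differed by -0.52.

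Of 33 genes of glycolysis and the hypoxia response, 6 were upregulated and 3 downregulated (median 0.01), shares no higher than those of all tested genes. The glucose transporter gene *Slc2a1* rose from 78.4, 73.7 and 62.1 FPKM to 274, 221 and 228 FPKM (log2 fold change 1.90, SE 0.23, adjusted p = 2.9e-05). *Ndrg1* (1.94 ± 0.332 to 30.4 ± 5.55 FPKM, log2 fold change 4.11), the prolyl hydroxylase gene *Egln3* (log2 fold change 3.71), *Aldoc* (log2 fold change 3.59) and the pyruvate dehydrogenase kinase gene *Pdk1* (log2 fold change 1.17) also rose. The 3 genes that fell, named after their values were seen, were the glycolytic enzymes *Eno1* (log2 fold change -1.57), *Gapdh* and *Pkm* (log2 fold change -1.18). *Ldha* was not called, with 473, 499 and 579 FPKM and 341, 298 and 324 FPKM (log2 fold change -0.54) and *Hk1* did not differ past its error (log2 fold change 0.01, SE 0.15, adjusted p = 0.94).

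Enzymes that handle aldehydes and oxidants in the cornea included 8 upregulated (21.1%) and 6 downregulated (15.8%) of 38, shares close to those of all tested genes (19.4% and 15.4%). The median was −0.40, and at an adjusted p under 0.05 alone 12 were higher and 20 lower. *Aldh3a1*, which accumulates in the corneal epithelium as a crystallin-like protein, went from at most 0.07 FPKM to 58.3, 61 and 59.6 FPKM (log2 fold change 10.99, SE 1.18, adjusted p = 1.1e-05). *Aldh1a7* rose from 3.04, 2.36 and 1.78 FPKM to 11.5, 11.2 and 11.1 FPKM (log2 fold change 2.38). *Aldh1a1* had 20.9, 12 and 1.49 FPKM in the pNC, a wide spread, and 2.08, 1.72 and 2.41 FPKM in the cornea (log2 fold change -2.32, SE 0.75, adjusted p = 0.017). E10.5 replicate 3 lay below all corneas, and the call was lost without E10.5 replicate 1 (−1.55) or E16.5 replicate 2 (−2.21).

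Clock genes were upregulated in 12 of 19 cases, with none downregulated (median 1.29). They held activators, repressors and output genes. *Hlf* rose from 0.39, 0.52 and 0.55 FPKM to 26.9, 21.9 and 20.7 FPKM (log2 fold change 5.71, SE 0.37, adjusted p = 3.8e-07), *Per1* from 8.83, 8.13 and 6.12 FPKM to 23.9, 21.9 and 22.4 FPKM (log2 fold change 1.71), *Dbp* from 4.68 ± 0.487 to 10.8 ± 1.82 FPKM (log2 fold change 1.36) and *Nr1d1* from 2.29 ± 0.223 to 7.06 ± 0.842 FPKM (log2 fold change 1.77). *Arntl* (BMAL1), the core activator, was itself not called (3.72, 2.38 and 2.8 FPKM and 3.12, 3.13 and 2.84 FPKM, log2 fold change 0.21, SE 0.20, adjusted p = 0.37). The hour of dissection was not given in the sources used here, and its part in these values was not tested.

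Immediate early and stress genes differed widely among the pNC samples. Of 24 tested, 7 were upregulated and 1 downregulated. *Fos* had 92.8, 69.1 and 7.43 FPKM in the pNC and 167, 147 and 125 FPKM in the cornea, and *Egr1* had 44.7, 36.9 and 4.59 FPKM and 74, 90.7 and 69.8 FPKM. All corneas lay above all pNC samples, and E10.5 replicate 3 was far below the rest. Neither was called, with log2 fold change 1.52, SE 1.05, adjusted p = 0.22 for *Fos* and log2 fold change 1.60, SE 1.01, adjusted p = 0.18 for *Egr1*. In a model of the 6 samples alone both were called, with an adjusted p of 0.0255 for *Fos* and 0.0134 for *Egr1*, and both were also called without E14.5 replicate 1 (0.0484 and 0.0224). The number of downregulated genes went from 1 to 3 without E10.5 replicate 3 or E14.5 replicate 3, and to 2 without E14.5 replicate 1. *Jun* (140.1, 107 and 46.7 FPKM and 76, 61.6 and 54.1 FPKM) and *Fosb* (43.8, 31.1 and 1.37 FPKM and 6.88, 8.95 and 8.7 FPKM) overlapped between stages. *Fosl2* was even within each stage and rose from 0.94, 0.93 and 0.84 FPKM to 99.6, 82.4 and 81.5 FPKM (log2 fold change 6.75, SE 0.37, adjusted p = 1.6e-07). The heat shock genes *Hspa1a* (log2 fold change 3.20) and *Hspa1b* (log2 fold change 3.35), near-identical copies whose reads cannot be well separated, rose as well.

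Among signalling pathways, Wnt genes were upregulated in 25 of 58 cases (43.1%) and downregulated in 8. Several of the rises were those of ligand genes. The study cites earlier work that placed Wnt ligands in the presumptive corneal epithelium, whose source, the ectoderm, was removed at E10.5. The part of this in each value was not tested. *Wnt10a* went from 0.17, 0.56 and 0.8 FPKM to 77.7, 61.5 and 58.3 FPKM (log2 fold change 7.14, SE 0.45, adjusted p = 3.4e-07), *Wnt4* from 3.63, 5.9 and 7.2 FPKM to 141, 123 and 128 FPKM (log2 fold change 4.69, SE 0.27, adjusted p = 2e-07) and *Wnt2* from 0.79 ± 0.272 to 19.7 ± 1.78 FPKM (log2 fold change 4.77). *Wnt3a* (log2 fold change 6.88), *Wnt10b* (log2 fold change 4.91) and *Wnt5a* (log2 fold change 1.99) also rose. *Axin2*, a feedback target of canonical Wnt signalling, had 14.9, 15.6 and 15.4 FPKM at E10.5 and 25.9, 28.6 and 27.5 FPKM at E16.5. Its log2 fold change of 0.99 was just under the limit and passed it without E16.5 replicate 1 (1.04).

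Notch genes moved both ways. Of 23 tested, 10 were upregulated and 7 downregulated. The receptor gene *Notch1* rose from 12.2, 13.1 and 7.5 FPKM to 44.8, 36.2 and 36.8 FPKM (log2 fold change 1.99, SE 0.26, adjusted p = 4.8e-05), and the ligand genes *Jag2* (8.87 ± 1.37 to 65.4 ± 6.08 FPKM, log2 fold change 3.03), *Dll1* (log2 fold change 2.44) and *Jag1* (log2 fold change 1.28) rose with it. The target gene *Hes1* passed the limit narrowly (log2 fold change 1.08) and did not without E10.5 replicate 1 (0.99), without E16.5 replicate 1 (0.93) or with library totals (0.93). *Hey1*, another target, fell from 10.3, 10.4 and 8.7 FPKM to 0.57, 1.28 and 0.86 FPKM (log2 fold change -3.28, SE 0.31, adjusted p = 4.3e-06), and the modifier gene *Mfng* fell by 4.23 on the log2 scale. *Dll4*, *Notch4*, *Hey2* and *Heyl*, named after their values were seen, fell as well. *Dll4* and *Notch4* are also genes of blood vessels, whose summed markers were lower at E16.5 (59.96 to 80.2 against 279 to 446 FPKM), and the part of this was not tested.

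Of 14 hedgehog genes tested, 5 rose and 3 fell (median −0.06). The target gene *Gli1* went from 29.96, 28.7 and 26.3 FPKM to 0.25, 1.51 and 1.28 FPKM (log2 fold change -4.65, SE 0.58, adjusted p = 3.5e-05) and the receptor gene *Ptch1*, also a target, from 15.7, 16.3 and 11.5 FPKM to 3.61, 3.44 and 3.25 FPKM (log2 fold change -1.92, SE 0.22, adjusted p = 1.6e-05). The ligand gene *Shh* itself was too rare to test, at 0.77, 0.2 and 0 FPKM in the pNC and no count in the cornea. *Cdon*, a co-receptor gene, rose from 16.9 ± 1.98 to 67.6 ± 0.577 FPKM (log2 fold change 2.15) and *Hhip*, a target whose product sequesters the ligand, from 0.873 ± 0.0569 to 11.3 ± 1.5 FPKM (log2 fold change 3.84).

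In the fibroblast growth factor list 7 of 25 genes were upregulated and 8 downregulated. The receptor gene *Fgfr2* rose from 26.9, 29.2 and 28.6 FPKM to 92.8, 91.3 and 88.9 FPKM (log2 fold change 1.80, SE 0.09, adjusted p = 7.3e-08) and *Fgfr3* from 6.02 ± 0.803 to 30.1 ± 5.74 FPKM (log2 fold change 2.48). The carrier protein gene *Fgfbp1* rose from 0.0333 ± 0.0577 to 33.3 ± 8.52 FPKM (log2 fold change 9.72). The ERK phosphatase gene *Dusp6*, induced by FGF signalling, fell from 33.3, 31.3 and 19.6 FPKM to 3.49, 4.69 and 4.23 FPKM (log2 fold change -2.61, SE 0.27, adjusted p = 8.3e-06). The feedback inhibitor gene *Spry1* was not called (10.49, 9.15 and 3.77 FPKM and 8.86, 9.76 and 9.94 FPKM), with E10.5 replicate 3 the lowest sample. The ligand genes *Fgf7* and *Fgf10* were at or below 1.76 FPKM in every sample and were not called, although *Fgf10* (-0.996) was without E10.5 replicate 2 (−1.24).

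TGF-beta and BMP genes were as often up (12 of 47) as down (13). *Bmp4* fell from 15.8, 16.4 and 18.2 FPKM to 3.51, 2.22 and 2.84 FPKM (log2 fold change -2.41, SE 0.17, adjusted p = 6.5e-07), *Bmp5* from 5.27 ± 0.225 to 0.133 ± 0.0808 FPKM (log2 fold change -5.09) and the pseudoreceptor gene *Bambi* from 10.4 ± 0.37 to 1.11 ± 0.235 FPKM (log2 fold change -3.07). *Bmp3*, whose product opposes the other BMPs, rose from 1.8, 1.17 and 1.51 FPKM to 35.7, 47.3 and 43.2 FPKM (log2 fold change 4.95, SE 0.36, adjusted p = 7.9e-07). The receptor gene *Tgfbr2* (6.97 ± 1.14 to 26.4 ± 3.75 FPKM, log2 fold change 2.08) and the latent TGF-beta binding protein gene *Ltbp4* (log2 fold change 3.14) rose. Of the ligand genes, *Tgfb1* (log2 fold change -0.80) and *Tgfb2* (log2 fold change -0.66) were not called, but *Tgfb1* was without E10.5 replicate 3 (−1.08).

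Genes of retinoic acid signalling, which patterns the periocular mesenchyme, included 9 of 24 downregulated and 5 upregulated. The receptor gene *Rarb*, itself a target of retinoic acid, fell from 43, 43.2 and 52.6 FPKM to 3.11, 5.02 and 4.23 FPKM (log2 fold change -3.34, SE 0.30, adjusted p = 3e-06), and the orphan receptor gene *Nr2f1* from 77, 86.5 and 69.6 FPKM to 7.32, 8.01 and 8.02 FPKM (log2 fold change -3.17, SE 0.13, adjusted p = 3.9e-08). The synthesis gene *Aldh1a2* (log2 fold change -2.26) and the retinol uptake gene *Stra6* (log2 fold change -1.43) fell, whereas *Cyp26a1*, which degrades retinoic acid, rose from 3.45, 5.34 and 2.88 FPKM to 9.94, 11.1 and 10.9 FPKM (log2 fold change 1.60, SE 0.20, adjusted p = 3e-05). The upregulated genes also held *Adh1* and *Adh7*, and their number went from 5 to 3 without E16.5 replicate 2.

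Guidance cues for nerves changed in 29 of 55 cases, 19 up and 10 down. *Sema3c* rose from 4.5, 6.26 and 6.26 FPKM to 82, 81.8 and 79.5 FPKM (log2 fold change 3.99, SE 0.29, adjusted p = 8.3e-07), *Sema3f* from 31.1, 28.1 and 25.4 FPKM to 131, 131 and 135 FPKM (log2 fold change 2.38, SE 0.13, adjusted p = 1.4e-07) and *Ntn4*, a laminin-binding netrin gene, from 1.77 ± 0.397 to 38.8 ± 2.19 FPKM (log2 fold change 4.60). *Sema3a*, which repels corneal sensory axons, had 13.8, 12.9 and 14.54 FPKM at E10.5 and 24, 24.8 and 23.9 FPKM at E16.5 (log2 fold change 0.97), just under the limit, and passed it without E10.5 replicate 3 (1.004). The ephrin receptor gene *Epha3* fell from 14.52 ± 1.43 to 0.49 ± 0.144 FPKM (log2 fold change -4.73).

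Of the Hippo pathway and its targets, 5 of 22 were upregulated and 2 downregulated. Of the co-activator genes, *Yap1* was at 65.7, 67.5 and 64.7 FPKM and 49, 49.9 and 51.3 FPKM (log2 fold change -0.25, SE 0.12, adjusted p = 0.096) and *Wwtr1* (TAZ) rose from 12.9, 12.5 and 12.9 FPKM to 27.1, 34.7 and 32 FPKM (log2 fold change 1.44, SE 0.12, adjusted p = 1.4e-06). Their partner *Tead2* fell from 206 ± 5.35 to 49.3 ± 5.78 FPKM (log2 fold change -1.92). Among chromatin genes, 8 of 31 fell and 5 rose. *Uhrf1* (105.4 ± 2.12 to 14.7 ± 2.31 FPKM, log2 fold change -2.71), *Dnmt1* (log2 fold change -1.50), *Dnmt3b* (log2 fold change -2.41), the Polycomb methyltransferase gene *Ezh2* (84.6 ± 0.757 to 15.9 ± 1.43 FPKM, log2 fold change -2.27) and *Cbx2* (log2 fold change -2.40) fell, while *Cbx6* rose (log2 fold change 2.53). *Dnmt3a* did not differ past its error (log2 fold change 0.04, SE 0.10, adjusted p = 0.77), and its sign turned with library totals (−0.11).

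Markers of other cells around the eye were examined in both tissues. Vascular endothelial genes were downregulated in 16 of 20 cases (median −4.10), and summed to 279 to 446 FPKM in pNC and 59.96 to 80.2 FPKM in cornea. *Cdh5* went from 38.8, 36.6 and 20.3 FPKM to 0.17, 1.85 and 1.56 FPKM (log2 fold change -4.58, SE 0.51, adjusted p = 1.5e-05), lowest in replicate 1 of E16.5. *Pecam1* (log2 fold change -4.56) and *Tek* (log2 fold change -5.59) fell alike. *Kdr*, the receptor gene for VEGF, was not called, with 32.5, 29.5 and 18.3 FPKM in the pNC and 21.7, 29.3 and 27.5 FPKM in the cornea (log2 fold change 0.12, SE 0.24, adjusted p = 0.68). The single vascular gene that rose was *Lyve1* (0.34, 0.17 and 0.13 FPKM to 1.4, 1.43 and 2.03 FPKM, log2 fold change 3.04), which macrophages and lymphatic vessels also express. In blood, embryonic globin genes fell, with *Hbb-y* going from 2592, 2893 and 1869.8 FPKM to 1.74, 4.01 and 2.85 FPKM (log2 fold change -9.58, SE 0.69, adjusted p = 7.4e-07). *Hba-a1*, an adult globin gene with a near-identical copy, was present at both stages (1545, 1746 and 1142 FPKM and 1041, 1341 and 639 FPKM), and *Hbb-bs*, the single erythroid gene that rose and also close to a paralog, went from 31.1, 23.8 and 15.2 FPKM to 698, 910.5 and 438 FPKM (log2 fold change 5.02, SE 0.50, adjusted p = 6.8e-06).

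Neuronal genes were downregulated in 15 of 16 cases, with a median of −7.43 (−7.14 with genes absent from a stage at their bound). *Tubb3* had 117, 124 and 71.7 FPKM in the pNC and 0.26 FPKM in each cornea (log2 fold change -8.46, SE 0.40, adjusted p = 7.3e-08). Genes of the optic cup and retina fell in 9 of 13 cases (median −4.46, or −4.08 at the bound) and summed to 67.4 to 105.3 FPKM in pNC and 31.5 to 34.0 FPKM in cornea. These sums include the pigment genes *Mitf*, *Tyr*, *Tyrp1*, *Dct* and *Pmel*, which are also in the melanocyte list. Of these, *Tyr* and *Dct* were not called. *Lhx2* was at 11.7, 14.3 and 4.81 FPKM in the pNC, in which the optic cup had been removed, and at 0.5, 0.3 and 0.15 FPKM in the cornea (log2 fold change -4.86, SE 0.76, adjusted p = 0.00018). *Sox2* (log2 fold change -5.55) and *Otx2* (log2 fold change -4.46) fell too, while *Rax*, low in E10.5 replicate 3 (0.61 FPKM), was not tested. Skeletal muscle genes fell in 10 of 12 cases (median −5.08, or −4.44 at the bound), with *Myog* at 3.4, 3.88 and 3.16 FPKM in the pNC and no count in the cornea. For the neuronal and optic cup lists, as for the vascular one, E10.5 replicate 3 held the lowest summed share of the pNC samples.

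**Figure D5:**
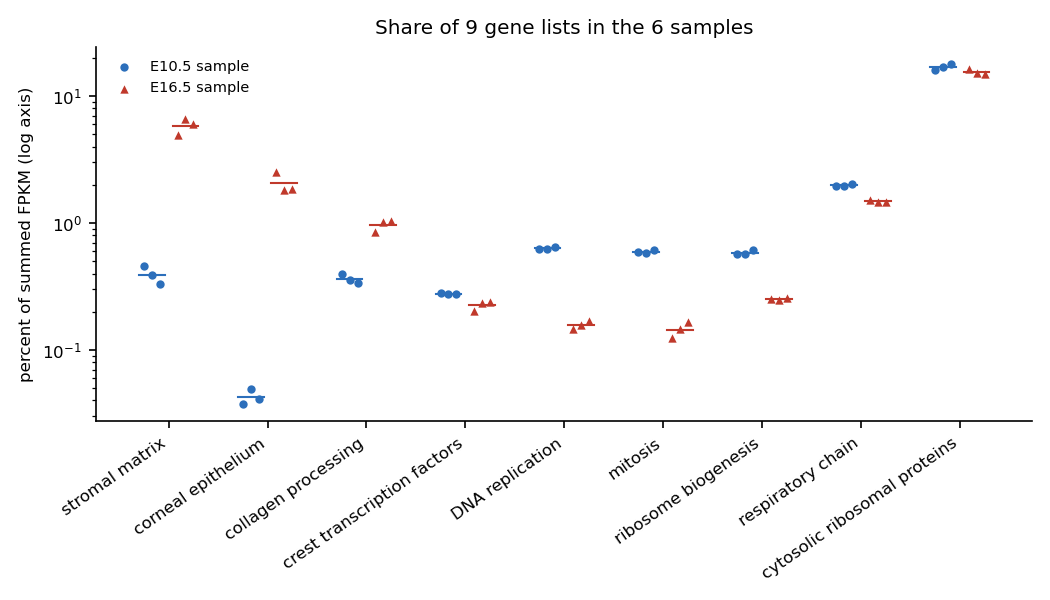
Percent of summed FPKM taken by gene lists in each sample (points, log axis) at E10.5 and E16.5. Stromal matrix (0.330% to 0.455% against 4.90% to 6.57%) and corneal epithelium rise, replication and mitosis fall, and ribosomal proteins overlap between stages.

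Mast cell and granulocyte genes rose in 11 of 17 cases and fell in 2 (median 5.48, or 5.16 at the bound). The rises include *S100a8* and *S100a9*, which are also in the cornified envelope list. The mast cell genes *Cma1*, a chymase (0.0367 ± 0.0635 to 50.5 ± 6.54 FPKM, log2 fold change 10.18), and *Cpa3*, a carboxypeptidase (0.31, 0.15 and 0.31 FPKM to 44.7, 48.2 and 49.4 FPKM, log2 fold change 7.62, SE 0.63, adjusted p = 1.8e-06), were low in all pNC samples and present in all corneas. *Mpo*, a granulocyte peroxidase gene, was at or below 2.16 FPKM and fell (log2 fold change -4.13), a call that was lost when any of 5 of these 6 samples was left out. *Gata2*, the other gene that fell (log2 fold change -3.11), is named after its values were seen. Macrophage genes were upregulated in 2 of 20 cases, or in 4 without E10.5 replicate 3. *Csf1r* was present at 8.44, 8.14 and 7.55 FPKM in the pNC and 5.37, 7.25 and 8 FPKM in the cornea (log2 fold change -0.08, SE 0.14, adjusted p = 0.63), and *Mrc1* rose from 3.73, 4.64 and 3.54 FPKM to 7.44, 8.58 and 8.12 FPKM (log2 fold change 1.17, SE 0.17, adjusted p = 0.00011).

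Schwann and glial genes moved both ways (5 up and 5 down of 13). *Sox10* fell from 12.5, 18.1 and 12.3 FPKM to 1.89, 3.04 and 2.28 FPKM (log2 fold change -2.42, SE 0.30, adjusted p = 3e-05) and *Fabp7* from 33.9 ± 3.69 to 1.95 ± 0.466 FPKM (log2 fold change -3.96), whereas *Erbb3*, which epithelial cells also express, rose from 6.1, 6.32 and 4.67 FPKM to 27.6, 21 and 20.5 FPKM (log2 fold change 2.16, SE 0.22, adjusted p = 7.2e-06). Melanocyte genes were upregulated in 1 and downregulated in 3 of 10 cases. *Tyr* had 16, 14.9 and 19.4 FPKM at E10.5 and 14.1, 12.8 and 11.7 FPKM at E16.5 and *Dct* 7.76, 6.82 and 6.76 FPKM and 3.26, 5.36 and 4.35 FPKM, neither of them called, so that pigment cell transcripts were present in both tissues. The number of downregulated melanocyte genes went from 3 to 1 without E10.5 replicate 1 or 2, and that of upregulated ones from 1 to 2 without E10.5 replicate 2.

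Most lens genes were too rare to test. Of 20 in the list 6 could be tested, 5 rose and 1 fell. The 18 lens genes found in the samples, tested or not, summed to 4.33 to 11.1 FPKM at E10.5 and 50.4 to 56.4 FPKM at E16.5. Most of this came from *Cryab* (3.14, 3.68 and 0.97 FPKM to 47.4, 41.3 and 46.7 FPKM, log2 fold change 4.25, SE 0.32, adjusted p = 9.6e-07), a small heat shock protein gene that other tissues express. *Cryaa*, a defining lens gene, had 0.95, 0.19 and 0 FPKM in pNC and 1.56, 1.35 and 0.96 FPKM in cornea (log2 fold change 1.88, SE 0.74, adjusted p = 0.041), and this call was lost when any of 6 of the 9 samples was left out. *Crygs* had no count in any cornea. Without E16.5 replicate 1, 3 lens genes rose in place of 5, and the 1 that fell became 0 without E10.5 replicate 1 or 2 or E16.5 replicate 3, and 2 without E10.5 replicate 3 or E14.5 replicate 1. Genes of cartilage and bone were up in 7 and down in 5 of 12 cases. *Sox9* fell from 12.7, 14.7 and 13.4 FPKM to 2.58, 1.52 and 2 FPKM (log2 fold change -2.60, SE 0.17, adjusted p = 4.2e-07), and *Col2a1* from 178, 159 and 115 FPKM to 45.8, 76.5 and 69.6 FPKM (log2 fold change -1.09), a call lost without E10.5 replicate 1 (−0.95) or E16.5 replicate 1 (−0.89). *Col11a1*, whose product lies inside fibrils, rose from 16.7 ± 3.08 to 116 ± 19.7 FPKM (log2 fold change 2.95). Genes of pericytes and smooth muscle rose in 1 and fell in 3 of 10 cases (5 without E16.5 replicate 3), with *Pdgfrb* (39.2, 35.5 and 25.2 FPKM and 15.2, 24.3 and 22.1 FPKM) and *Acta2* (6.1, 7.98 and 4.81 FPKM and 5.39, 4.69 and 8.01 FPKM) not called. *Xist*, expressed in females, ranged from 71.3 to 117 FPKM at E10.5 and from 29.1 to 83.9 FPKM at E16.5 and was not called, and 1 of the 5 sex-linked genes was upregulated, a count that became 0 without E10.5 replicate 1 or 2 or E16.5 replicate 2, and 2 without E10.5 replicate 3.

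Many abundant genes that changed belonged to none of the lists. Among the rises, *Anxa2*, a membrane-binding annexin gene, went from 99.2, 100 and 83.6 FPKM to 994, 816 and 853 FPKM (log2 fold change 3.38, SE 0.19, adjusted p = 1.9e-07), the small heat shock protein gene *Hspb1* from 5.24, 6.8 and 7.63 FPKM to 739, 465 and 492 FPKM (log2 fold change 6.57, SE 0.32, adjusted p = 8.2e-08) and *A2m*, a protease inhibitor gene, from 1.44, 1.59 and 1.49 FPKM to 502, 597 and 546 FPKM (log2 fold change 8.66, SE 0.74, adjusted p = 2.2e-06). *Mgarp*, a mitochondrial protein gene abundant in cornea, rose from 5.23 ± 1.16 to 402 ± 57.7 FPKM (log2 fold change 6.44), and *Emp1* from 17 ± 1.94 to 393 ± 4.18 FPKM (log2 fold change 4.67). *Lgals1*, a galectin gene, was high already in the pNC and rose less (227 ± 4.52 to 653 ± 16.6 FPKM, log2 fold change 1.67, SE 0.39, adjusted p = 0.0028). Among the falls were the histone variant gene *H2az1* (1073 ± 95.6 to 261 ± 10.51 FPKM, log2 fold change -1.89), *Mif* (log2 fold change -1.78), *Tubb5* (log2 fold change -2.01) and *Actb* (1269.9 ± 53.7 to 563 ± 48.1 FPKM, log2 fold change -1.03). *Actb* fell below the fold limit without E10.5 replicate 1 (−0.99) or E16.5 replicate 1 (−0.95).

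Called genes also lay side by side on chromosomes. Of the runs of at least 5 neighbouring tested genes with the same call, the longest held 13 upregulated genes of the S100 and cornified envelope cluster on chromosome 3 (90511034 to 93564645, log2 fold changes 1.48 to 10.20). Beta protocadherins on chromosome 18 gave a run of 10 (37442517 to 37521419). Type II keratins gave a run of 9 on chromosome 15 and type I keratins another of 8 on chromosome 11. The imprinted interval from *Begain* through *Dlk1*, *Meg3* and *Rian* to *Mirg* on chromosome 12 gave a run of 7 (109032181 to 109749458, 1.10 to 3.92), and desmosomal cadherins a run of 6 on chromosome 18. Downregulated runs of this length numbered 2, on chromosomes 19 and 9, each of 5 genes.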

How the data were processed

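RNA-Seq data of 9 samples (3 each of E10.5 pNC, E14.5 cornea and E16.5 cornea) were used. Per the labels, the submitters' processing notes name Bowtie2, HISAT, RSEM and GRCm38, with versions and the strand setting not given in the sources used here. The deposited values are an expected count per gene, not normalized, and FPKM, which the authors scaled to transcript length and to the mapped total of the sample. Genes absent from a file were set to 0. Entrez identifiers were matched to RefSeq (19312 of 19369).

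Expected counts were rounded, filtered by stage with filterByExpr and scaled by TMM. A quasi-likelihood model of stage over all 9 samples was fitted with edgeR 4.0.16 in R 4.3.3, the contrast being E16.5 minus E10.5. The study's methods used NOISeq. Its criterion was recomputed here from FPKM, without the NOISeq package, as an alternative besides DESeq2 1.42.0 and limma 3.58.1. Tests were checked on simulated counts. The replicates, called biological in the series description, are pools, and p-values measure the spread between pools. No samples were identical, and replicates differed by more than sampling noise (chi-square per degree of freedom 2.94 to 26.3). Pairs of E10.5 or of E16.5 samples reached at most 10.3, and the largest values, 26.3 and 26.2, were those of E14.5 replicate 1 with the other E14.5 samples. The common dispersion, a measure of spread beyond counting error, was 0.0395 at E14.5, 0.0113 at E10.5 and 0.0061 at E16.5. The noisier E14.5 samples took part in the estimate of spread behind each p and SE.

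Named genes were the first 4 of each list, the 4 called members of each list with the largest changes, the 15 largest rises and falls, the 10 largest gains and losses of FPKM, and the 10 most abundant rises and falls outside the lists, with a mean of at least 5 FPKM where ranked by fold. Some named genes are not reported here. Exceptions are stated, and *Tgm3*, *Lor*, *Lyve1*, *Cdc20*, *Hbb-bs* and the ends of chromosome runs were likewise chosen after values were seen. Members, lists and tests were chosen with earlier results of these data known. Promoters span 250 bases before to 50 after the start. Alternatives were other scalings, filters, sample sets and tools, and each sample left out in turn. Lower bounds of folds cover counting error only.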

Additional observations from a re-analysis of the deposited data

How the results depend on the processing

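The numbers of upregulated and downregulated genes (2862 and 2282) stayed within 1.5 times in several other settings. These were edgeR with RLE (relative log expression) factors in place of TMM (2854 and 2288), no low-count filter (3153 and 2585), the 6 samples alone (2794 and 2269) and DESeq2 (2823 and 2271). With 1 of the 9 samples left out, the numbers ranged from 2829 to 2934 and from 2286 to 2387. Scaling by library totals gave 2503 and 2695 and limma on log2(FPKM + 0.1) 2482 and 2634. Upregulated genes fell to 1856 with limma on log2(FPKM + 1), with 1996 downregulated, and to 1694 under the NOISeq criterion, with 1920 downregulated. These analyses moved the median of all genes to between −0.15 and −0.12. A limit of 2 on the log2 scale left 1426 and 930. The replicate numbers do not pair samples of the stages by any label, and the correlations of same-numbered E10.5 and E16.5 samples were −0.11, −0.03 and −0.06. A fit with the replicate block gave 2855 and 2285.

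Reversals of sign among named genes concerned genes that were not called. With library totals, limma with a pseudocount of 1, limma with 0.1 and NOISeq, in this order, the log2 fold change of *Acta2* went from 0.08 to −0.066, −0.059, −0.069 and −0.062, that of *Rplp0* from 0.13 to −0.016, −0.013, −0.013 and −0.013, that of *Dnmt3a* from 0.04 to −0.11, −0.16, −0.16 and −0.17, that of *Hk1* from 0.01 to −0.14, −0.12, −0.13 and −0.13, and that of *Kdr* from 0.12 to −0.036, −0.0030, −0.0020 and −0.033. For *Chst1* (0.16) the limma fits gave −0.029 and −0.055. With 1 sample left out, the values ranged from −0.17 to 0.29 for *Acta2*, from −0.19 to 0.081 for *Csf1r*, from −0.0081 to 0.066 for *Dnmt3a*, from −0.0024 to 0.94 for *Fgf7*, from −0.087 to 0.11 for *Hk1*, from −0.72 to 0.14 for *Ccn1*, from −0.10 to 0.28 for *Kdr*, from −0.11 to 0.75 for *Kdm5d*, from −0.050 to 0.47 for *Chst1* and from −0.47 to 0.090 for *Xist*. The cause was not tested. Depth limits the rarest transcripts, since a gene below the count filter was not tested.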

Other observations

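The groups of genes in this section were chosen after their values had been seen, and the counts describe them without a test of the group. Of all tested genes, 19.4% were upregulated and 15.4% downregulated. Beta protocadherins, cell surface cadherins encoded by single-exon genes in a cluster on chromosome 18, were upregulated in 19 of 21 tested cases with none downregulated (median log2 fold change 1.95), and they summed to between 5.71 and 7.37 FPKM in pNC and between 25.7 and 30.04 FPKM in cornea. *Pcdhb17* rose from 0.54, 0.47 and 0.47 FPKM to 3.44, 4.38 and 3.82 FPKM (log2 fold change 3.11, SE 0.19, adjusted p = 2.5e-07). The gamma protocadherins beside them, which share their last exons, were upregulated in 1 of 22 cases (median −0.04). Reads of the shared exons may be divided among these genes, so the 22 cases are not separate measurements and are not directly comparable with the beta genes. Of the 6 Iroquois homeobox genes, 5 rose and 1 fell. *Irx4* went from 0.64, 1.61 and 2.48 FPKM to 17.8, 14.6 and 16.1 FPKM (log2 fold change 3.51, SE 0.29, adjusted p = 1.9e-06) and *Irx3* from 53.5, 65.1 and 63.7 FPKM to 119, 123 and 131 FPKM (log2 fold change 1.18, SE 0.12, adjusted p = 6.7e-06), whereas *Irx6* fell (log2 fold change -1.49).

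Genes of antigen presentation by MHC class I were upregulated in 9 of 15 cases (median 1.27), with *Tap1*, the peptide transporter gene, going from 1.51, 1.33 and 1.46 FPKM to 10.4, 8.8 and 9.19 FPKM (log2 fold change 2.87, SE 0.29, adjusted p = 7.4e-06). The sum of the group did not rise, with 944 to 1083 FPKM in pNC and 847 to 934 FPKM in cornea. Its most abundant members, *Calr*, *Pdia3*, *Canx* and *B2m*, were not called. Interferon-induced genes were upregulated in 12 of 20 cases (median 1.76). In this group E16.5 replicate 3 stood above the other corneas for some members. *Ifit3* had 0.66, 0.74 and 3.45 FPKM at E16.5 and 0.07, 0.1 and 0 FPKM at E10.5 (log2 fold change 4.84, adjusted p = 0.0014), and *Irf7* had 1.1, 0.7 and 3.14 FPKM and 0.38, 0.12 and 0.32 FPKM. *Ifitm1* was instead highest in E16.5 replicate 1 (2.75, 1.62 and 2.1 FPKM to 103, 76.2 and 69.7 FPKM, log2 fold change 5.37, SE 0.49, adjusted p = 3.5e-06).

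Of 20 genes in common use as references for normalization, 5 were downregulated, *Actb*, *Gapdh* and *Tubb5* among them, and none upregulated, with a median of −0.53. Among all tested genes 15.4% were downregulated. Among those with a mean of 100 FPKM or more it was 19.7%, with a median of −0.28. *Eef1a1* had 4539, 4665 and 4787 FPKM at E10.5 and 4465, 4143 and 4226 FPKM at E16.5 (log2 fold change 0.02, SE 0.10, adjusted p = 0.85). Long noncoding RNA genes were upregulated in 135 (23.1%) and downregulated in 53 (9.06%) of 585 tested cases, compared with 19.3% and 15.7% of 14014 protein coding genes. *Neat1*, the scaffold RNA of paraspeckles, rose from 6.03, 3.97 and 2.98 FPKM to 58.5, 43.6 and 39.9 FPKM (log2 fold change 3.60, SE 0.40, adjusted p = 1.4e-05), while its neighbour *Malat1* was not called (log2 fold change 0.12).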
